A study of Saccharomyces cerevisiae CEN.PK113-7D with 6 samples.

Results

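The small-subunit processome and the factors that finish the 40S ribosomal subunit are represented here by 48 genes of Saccharomyces cerevisiae, out of 5449 genes measured. They were taken by name, and each was matched by its current symbol. All 48 were measured, each by 1 probe set (the group of short array probes that reports a gene) of its own, none of which carries the suffix for shared probes. Total RNA of the haploid laboratory strain CEN.PK113-7D was labelled with biotin and hybridised to 6 single-colour GeneChip arrays. Of these, 3 held chemostat samples (replicates 4, 8 and 9) and 3 held batch samples (replicates 1, 2 and 3). Both cultures grew on glucose; a chemostat is fed and drained continuously, whereas a batch culture receives no fresh medium. The labels name no mutation or added agent in either group, and the sources used here do not give the dilution rate, the limiting nutrient or the growth phase in batch. Whether replicates were separate cultures is not said, so the p-values refer to the spread between these samples only, and that spread may be technical.

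The processome is a large particle that forms in the nucleolus on the first part of the ribosomal RNA precursor while RNA polymerase I is still transcribing it. The U3 small nucleolar RNA pairs with the precursor inside the particle, the 5' spacer is cleaved off, and the 18S rRNA folds with the small-subunit ribosomal proteins. RNA helicases and GTPases then take the particle apart, and the pre-40S subunit is exported and finished in the cytoplasm. In yeast, genes for ribosome assembly are known to be transcribed together and to track growth and nutrient signals through the TORC1 and protein kinase A pathways.

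The groups were set against each other as chemostat minus batch. Each gene has a log signal, its base taken as 2, so that a change of -1 leaves 50% of the batch signal. Signals compare a gene with itself between arrays, not one gene's level with another's. Whole cultures were measured, so fewer cells with a transcript and less of the transcript per cell cannot be told apart. Nor can these be told apart from a smaller share of the total RNA, since amounts per cell were not measured. Each change was tested with limma, its p-values adjusted over all 5449 genes (Benjamini-Hochberg), and an adjusted p under 0.05 is called lower or higher. Of 6 markers of mating type a cells, 6 were above background on all 6 arrays. Background is the 95th percentile of the annotated fission yeast probe sets (5.93). The summed signal of the 6 a-cell markers lay between 11.48 and 12.08 in chemostat and between 12.71 and 12.81 in batch. Of 4 alpha-cell markers 2, STE3 and SAG1, were above background on all arrays, and the summed signal of the 4 lay between 8.61 and 8.70 in chemostat and between 8.16 and 8.23 in batch. Among the a-cell markers STE2, MFA2, STE6 and BAR1 were lower in chemostat, AGA2 was higher and MFA1 did not pass. Among the alpha-cell markers STE3, SAG1 and MF(ALPHA)1 (mean 6.55 in chemostat, 5.60 in batch) were higher and MF(ALPHA)2 did not pass. The glucose-excess transporter genes HXT1 and HXT3 were lower in chemostat (2 of 2), and the glucose-repressed genes HXT7, ADH2, FBP1 and PCK1 were higher (4 of 4).

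Transcripts of the processome fell almost without exception. In chemostat 47 of the 48 genes were lower and 0 were higher, also at an unadjusted p under 0.05, while RIO1 did not pass. Over all genes 44.8% were lower and 33.6% were higher. The median change of the 48 genes was -0.84 log2 units, which corresponds to 55.9% of the batch signal, against a median of -0.06 over all 5449 genes. The middle part of the members, between the quartiles, spanned changes of -0.98 to -0.66. A fall of 1 log2 unit or more was measured for 12 of the 48 genes, and for 238 of all genes (4.37%). Another 29 members fell by 0.5 to 1 log2 unit, and 6 fell by less.

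The 2 groups of arrays did not overlap for any member. All 3 chemostat arrays lay below all 3 batch arrays for 47 members, as they did for 46.4% of all genes, and above them for RIO1, as for 35.3% of all genes. Requiring a fall of more than 1.5-fold (limma's treat) left 31 members lower, against 10.4% of all genes. Standard errors of the members' changes ran from 0.037 to 0.080. Replicates differed little, and the widest spread of a member within a group was 0.28 log2 units.

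What spread there was ran partly in common through the members. Batch replicate 1 was the lowest of the batch arrays for 32 members, and batch replicate 3 the highest for 32. Chemostat replicate 9 was the highest chemostat array for 40 members. The median deviation of the members from their own group mean was 0.07 on chemostat replicate 9 and -0.04 on chemostat replicate 4. It was 0.05 on batch replicate 3 and -0.05 on batch replicate 1. Over all genes the median deviations on the 6 arrays ran from -0.01 to 0.01. The 48 genes are therefore not independent measurements of the culture.

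**Figure D1:**
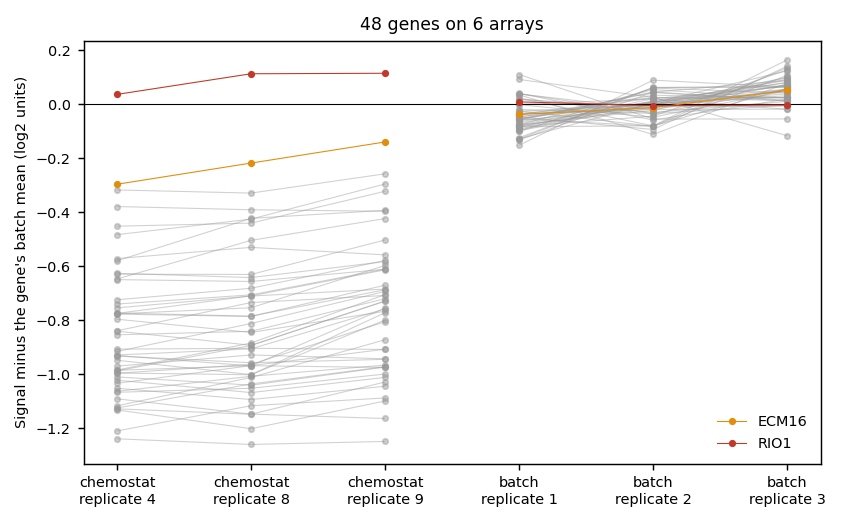
Signal of each of the 48 genes minus its own batch mean (log2 units, vertical axis) on the 3 chemostat arrays and the 3 batch arrays; each line joins the values of 1 gene. All genes but RIO1 lie below 0 on every chemostat array, and ECM16 lies closest to 0 among them.

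The genes for proteins of the U3 particle had the largest median fall of the groups by role, with 4 of 4 lower and a median change of -1.12. NOP1, NOP58 and NOP56 also had the highest batch signals of the 48 genes. Over the 48, larger falls went with higher batch signals (Spearman correlation of change with batch mean -0.51). Batch signal enters both quantities, and without the U3 particle proteins the correlation was -0.38 over 44 genes. Whether signal level bears on the order of the groups was not tested. NOP1 (YDL014W) encodes fibrillarin, the methyltransferase of box C/D small nucleolar particles. NOP1 signals were 9.93, 9.91 and 9.92 in chemostat replicates 4, 8 and 9, and 11.09, 11.17 and 11.25 in batch replicates 1, 2 and 3. It fell by 1.25 (SE 0.048, adjusted p = 1.45e-07, limma), the largest fall among the 48, to 42.1% of the batch signal. NOP58, one of the paired scaffold proteins of these particles, stood at 9.95, 9.88 and 9.98 in chemostat, against 11.04, 11.07 and 11.14 in batch. It fell by 1.14 (SE 0.046), and both groups were tight, more than 1 log2 unit apart. NOP56, the other scaffold protein, fell by 1.10 (SE 0.062). RRP9, which unlike the others belongs to the U3 particle alone, had the smallest change of this group. Its signals were 7.74, 7.83 and 7.89 in chemostat and 8.77, 8.88 and 8.94 in batch, and fell by 1.04 (SE 0.059). All 4 intervals overlap, and differences among these genes were not tested.

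UTP-A, the complex that binds the nascent precursor earliest and is linked to transcription of the ribosomal DNA, had 7 of 7 genes lower, with a median of -1.0003. UTP5 read 7.55, 7.64 and 7.67 in chemostat and 8.67, 8.68 and 8.92 in batch, and fell by 1.14 (SE 0.073). UTP15 read 7.95, 7.96 and 8.01 in chemostat and 8.88, 9.06 and 9.10 in batch, and fell by 1.04 (SE 0.061). Batch replicate 3 was the high batch array for both. UTP9 fell by 1.01, and UTP8, whose product also takes part in nuclear export of tRNA, fell by 1.0003. NAN1 fell by 0.92 and UTP4 fell by 0.89. UTP10, a very large protein of helical repeats, changed least in this complex. It stood at 8.19, 8.19 and 8.32 in chemostat and at 8.84, 8.79 and 8.83 in batch. It fell by 0.59 (95% interval -0.70 to -0.48), and this interval does not reach that of any other UTP-A gene (the nearest, UTP4, spans -1.05 to -0.72). UTP10 was picked here as the smallest change, and differences among these genes were not tested.

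UTP-B, the next complex to join, was the most even of the groups with more than 4 genes. Its 6 genes were all lower, between -1.01 for UTP18 and -0.86 for UTP13, with a median of -0.92. UTP18, which brings the helicase of the nuclear exosome to the particle, read 7.67, 7.64 and 7.70 in chemostat and 8.60, 8.66 and 8.77 in batch. UTP6 read 7.58, 7.60 and 7.59 in chemostat and 8.47, 8.57 and 8.67 in batch, and fell by 0.98 (SE 0.054). The chemostat arrays of UTP6 lay closer together than its batch arrays. DIP2 and PWP2, both built of WD repeats, fell by 0.92 each, and UTP21 fell by 0.87. UTP13 stood at 7.71, 7.73 and 7.88 in chemostat, where replicate 9 was high, and at 8.67, 8.62 and 8.62 in batch.

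UTP-C changed less. RRP7 read 8.18, 8.22 and 8.19 in chemostat and 8.69, 8.74 and 8.82 in batch, and fell by 0.55 (SE 0.045). UTP22 read 7.66, 7.80 and 7.88 in chemostat and 8.34, 8.27 and 8.30 in batch, and fell by 0.53 (SE 0.060). Both genes were lower on every chemostat array, at 68.1% and 69.5% of the batch signal. Casein kinase 2 is the other part of UTP-C and has many roles elsewhere in the cell. Of its 4 subunit genes CKA1 fell by 0.32 (SE 0.038), CKB2 rose by 0.12 (SE 0.041), and CKA2 and CKB1 did not pass (-0.12 and -0.05).

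The Mpp10 group, which steadies the pairing of U3 with the precursor, was lower in 4 of 4 genes but divided in size, with a median of -0.59. IMP3 read 7.88, 7.86 and 7.87 in chemostat and 8.68, 8.82 and 8.94 in batch, and fell by 0.94 (SE 0.063). IMP4 read 8.23, 8.28 and 8.30 in chemostat and 8.93, 9.02 and 9.01 in batch, and fell by 0.72 (SE 0.043). MPP10, the protein that holds both, fell by 0.47 (SE 0.073). SAS10 stood at 7.81, 7.86 and 7.995 in chemostat and at 8.24, 8.30 and 8.34 in batch, and fell by 0.40 (SE 0.057). The intervals of IMP3 (-1.09 to -0.80) and of MPP10 (-0.63 to -0.30) do not overlap, although the products sit together; the difference itself was not tested.

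**Figure D2:**
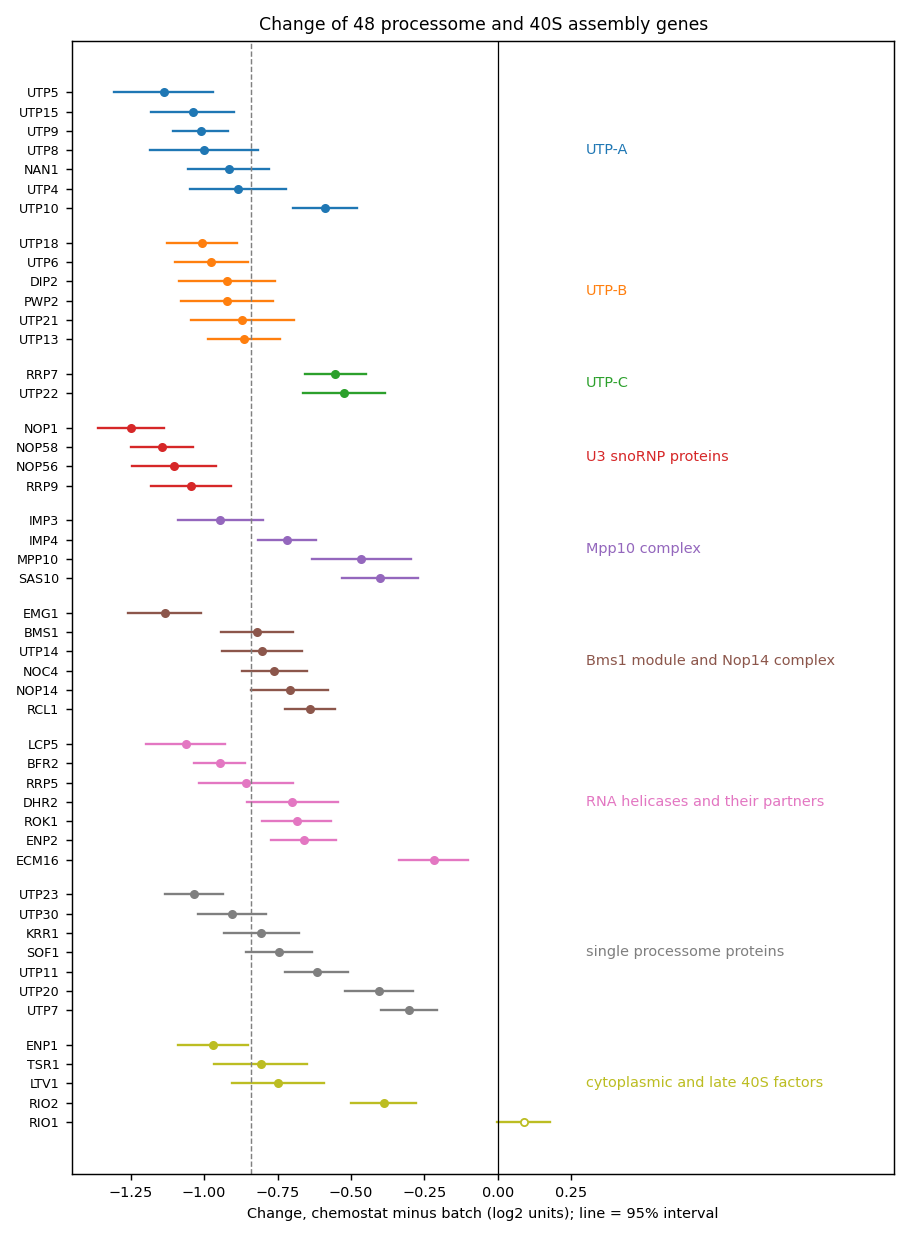
Change between chemostat and batch (log2 units, horizontal axis) of each of the 48 genes, sorted within groups by role; points are estimates, lines 95% intervals from limma, the open point did not pass and the dashed line is the median of the 48 (-0.84). The U3 particle proteins lie furthest to the left, UTP-B is the narrowest of the larger groups, and the interval of RIO1 alone reaches above 0.

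Among the Bms1 and Nop14 proteins, which join the particle after the U3 and UTP complexes, 6 of 6 genes were lower, with a median of -0.78. EMG1 encodes a methyltransferase that modifies a pseudouridine of the 18S rRNA. EMG1 signals were 8.63, 8.57 and 8.56 in chemostat and 9.63, 9.73 and 9.81 in batch, and fell by 1.13 (SE 0.054) to 45.6% of the batch signal. The GTPase BMS1 read 8.01, 7.96 and 8.12 in chemostat and 8.82, 8.83 and 8.91 in batch, and fell by 0.82 (SE 0.053). UTP14, the activator of the helicase encoded by ECM16, fell by 0.80, and NOC4 and its partner NOP14 changed by -0.76 and -0.71. RCL1, which binds the Bms1 protein, read 8.02, 8.01 and 8.06 in chemostat and 8.67, 8.69 and 8.65 in batch. RCL1 fell by 0.64 (SE 0.037), and its groups were the tightest of these 6 genes.

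The RNA helicases and the proteins found with them had 7 of 7 genes lower, with a median of -0.70, and one of the widest ranges. LCP5 read 7.39, 7.35 and 7.40 in chemostat and 8.32, 8.51 and 8.51 in batch, and fell by 1.06 (SE 0.059). BFR2 read 7.64, 7.68 and 7.66 in chemostat and 8.58, 8.61 and 8.63 in batch, and fell by 0.95 (SE 0.037). RRP5, a protein of S1 repeats required for both subunits, fell by 0.86. The helicase gene DHR2 fell by 0.70, the helicase gene ROK1 fell by 0.69 and ENP2, which encodes a WD-repeat partner of the Bfr2 protein, fell by 0.66.

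ECM16 (YMR128W) encodes Dhr1, the helicase that strips U3 from the precursor when the processome is dismantled. ECM16 read 7.34, 7.42 and 7.49 in chemostat and 7.60, 7.62 and 7.69 in batch, so chemostat replicate 9 came close to batch replicate 1. It fell by 0.22 (SE 0.051, adjusted p = 0.0043, limma), the smallest called change of the 48 genes, and 37.8% of all genes had a larger fall. Its interval, -0.34 to -0.10, overlaps that of UTP7 and lies apart from that of its activator UTP14 (-0.94 to -0.67). The differences themselves were not tested.

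The processome proteins outside these complexes were lower in 7 of 7 cases, with a median of -0.74. UTP23, required for release of the snR30 small nucleolar RNA, read 8.21, 8.16 and 8.22 in chemostat and 9.17, 9.28 and 9.25 in batch, and fell by 1.03 (SE 0.043). UTP30, a gene that yeast can live without, read 7.16, 7.16 and 7.16 in chemostat and 7.96, 8.12 and 8.11 in batch, and fell by 0.91 (SE 0.050). For UTP30 the spread lay in batch, where replicate 1 was low. KRR1, a KH-domain protein, fell by 0.81, the WD-repeat protein SOF1 fell by 0.74, and UTP11 fell by 0.62. UTP20, one of the largest proteins of the particle, fell by 0.40 (SE 0.050). UTP7, another WD-repeat protein, read 7.84, 7.83 and 7.90 in chemostat and 8.12, 8.16 and 8.19 in batch. It fell by 0.30 (SE 0.041, adjusted p = 0.000199, limma) to 81.1% of the batch signal.

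The factors that stay with or join the pre-40S particle late were the least alike, with 4 of 5 lower and 1 not passing. ENP1, present from the nucleolus to the cytoplasm, read 7.69, 7.76 and 7.82 in chemostat and 8.66, 8.72 and 8.80 in batch, and fell by 0.97 (SE 0.052). TSR1, a GTPase-like protein that keeps the immature subunit from binding its partners, read 7.87, 7.97 and 8.09 in chemostat and 8.70, 8.76 and 8.88 in batch. It fell by 0.81 (SE 0.068), and LTV1, which accompanies export and is dispensable for growth, fell by 0.75 (SE 0.068). RIO2, an ATPase of the kinase fold that acts in the cytoplasm, fell by 0.39 (SE 0.048), with 7.73, 7.72 and 7.71 in chemostat against 8.02, 8.13 and 8.18 in batch.

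RIO1 (YOR119C) stood apart from the other 47. It encodes a related ATPase of the last maturation steps that is also known for a role in nuclear control of rDNA and chromosome segregation. RIO1 read 7.997, 8.07 and 8.08 in chemostat and 7.97, 7.96 and 7.96 in batch. Every chemostat array was above every batch array, but the gap between the closest arrays was small. The change of 0.09 (SE 0.039, 95% interval -0.0035 to 0.18) did not pass (adjusted p = 0.071, limma). It passed as higher in 5 of the 17 other settings tried, among them the fit without chemostat replicate 4 (0.11, adjusted p = 0.037). Over those settings other than treat the change ran from 0.07 to 0.12, with adjusted p between 0.013 and 0.22. The intervals of RIO1 and RIO2 (-0.50 to -0.28) do not overlap, but the difference itself was not tested.

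**Figure D3:**
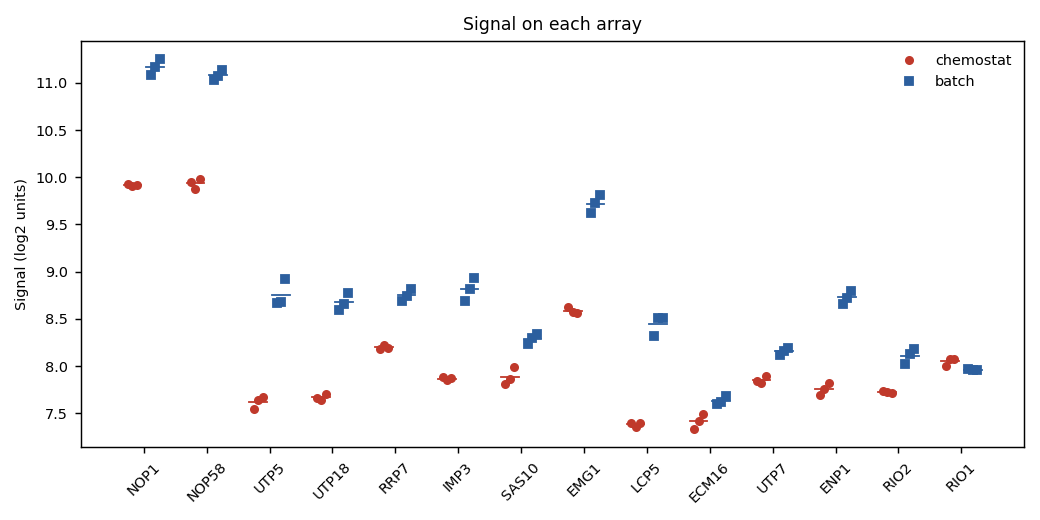
Signal (log2 units, vertical axis) on each array for 14 genes that span the range of changes; red circles are the 3 chemostat arrays, blue squares the 3 batch arrays, and short lines are group means. The groups are more than 1 log2 unit apart for NOP1 (9.92 in chemostat, 11.17 in batch), close for ECM16 (7.42 in chemostat, 7.63 in batch) and in the opposite order for RIO1 (8.05 in chemostat, 7.96 in batch).

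Other genes of the pathway, listed by function, were read from the same fit. Of 43 further 40S assembly factors 40 were lower, 2 did not pass and 1 was higher; the median was -0.60. SNU13, the protein that opens assembly of box C/D particles by binding the RNA's kink-turn, fell by 1.31 (SE 0.043). It stood at 10.18 ± 0.05 in chemostat and 11.49 ± 0.03 in batch (SD, n = 3). The helicase genes HAS1 and PRP43 changed by -1.23 (SE 0.056) and -1.19 (SE 0.069). ESF1, a nucleolar protein required for 18S rRNA formation, was the gene of this list that was called higher. ESF1 read 8.50, 8.33 and 8.32 in chemostat and 8.09, 7.97 and 7.84 in batch, a rise of 0.41 (SE 0.075, adjusted p = 0.0011, limma). All chemostat arrays of ESF1 were above all batch arrays, with replicate 4 the high chemostat array and replicate 1 the high batch array. HRR25, a casein kinase of 40S maturation with other cellular roles, and SQS1, the cofactor of PRP43, did not pass (-0.02 and 0.02).

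The H/ACA particle, which makes pseudouridines in rRNA and is the counterpart of the box C/D particle, had 4 of 4 core genes lower, with a median of -0.89. GAR1 fell by 1.08 (SE 0.051), NHP2 fell by 0.92 and the pseudouridine synthase gene CBF5 fell by 0.86. The median of this set lies next to that of the processome genes.

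Of the 85 genes on a broad list of 60S assembly factors 83 were lower and 2 were higher, with a median of -0.73. The falls were led by SDO1, which helps release the anti-association factor of the 60S subunit (-1.26, SE 0.042), HAS1 and NOP13 (-1.20, SE 0.049). RSA1 rose by 0.46 (SE 0.036); in yeast its product also takes part in assembling box C/D particles. LOT6, which encodes a quinone reductase and is not a dedicated 60S factor, rose by 0.15 at the edge of the threshold (adjusted p = 0.0499, limma). Of the 53 measured genes for 40S ribosomal proteins 53 were lower, with a median of -0.55; 13 of them have probe sets with shared probes, so near-identical copies may be counted together. RPS26B fell by 1.22 (SE 0.045), RPS28B fell by 1.17 and RPS22A fell by 1.10. The shares called lower were thus 97.9% of the 48 genes, 93.0% of the further 40S factors, 97.6% of the 60S factors and 100% of the 40S proteins, beside 44.8% of all genes. The lists differ in median but not in direction; whether the medians differ was not tested.

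RNA polymerase I, which transcribes the precursor, had 14 of 15 subunit and initiation factor genes lower, with a median of -0.59. RPA49 fell by 1.22 (SE 0.053), RPA34 fell by 1.09 and RPA43 fell by 1.02, and RRN10 did not pass (-0.10). The exosome and RNase MRP, which trim and cut the precursor, were listed together with the nuclease genes RNT1, RAT1 and XRN1. This list was more divided, with 19 of 26 genes lower, 4 higher and 3 not passing (median -0.45). POP5, shared by RNase MRP and RNase P, fell by 1.13 (SE 0.064), the exosome gene RRP42 fell by 0.92 and RNT1, the RNase III that cleaves behind the precursor, fell by 0.92. POP7, another subunit shared by RNase MRP and RNase P, rose by 0.49 (SE 0.035), to 8.05 ± 0.01 in chemostat, against 7.56 ± 0.01 in batch (SD, n = 3). RRP46, RMP1 and LRP1 did not pass (-0.08, -0.02 and 0.003).

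Regulators of ribosome genes gave 7 lower, 3 higher and 2 not passing of 12 measured (median -0.13), beside 44.8% lower and 33.6% higher over all genes. CRF1, a corepressor of ribosomal protein genes, was below background in batch and at least 2.21-fold higher in chemostat. DOT6, which represses ribosome assembly genes when TORC1 is inactive, rose by 0.61 (SE 0.046), with 8.19, 8.23 and 8.29 in chemostat and 7.67, 7.56 and 7.65 in batch. STB3, a repressor that binds the promoters of ribosome assembly genes, rose by 0.43 (SE 0.052). TOD6, the paralogue of DOT6 and likewise a repressor, fell by 0.26 (SE 0.045), and HMO1, an activator of rDNA and ribosomal protein genes, fell by 0.37 (SE 0.047). The activator gene SFP1 read 7.82 ± 0.02 in chemostat and 7.83 ± 0.08 in batch (SD, n = 3) and did not pass, and neither did ABF1 (-0.05). The activity of these proteins was not measured.

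**Figure D4:**
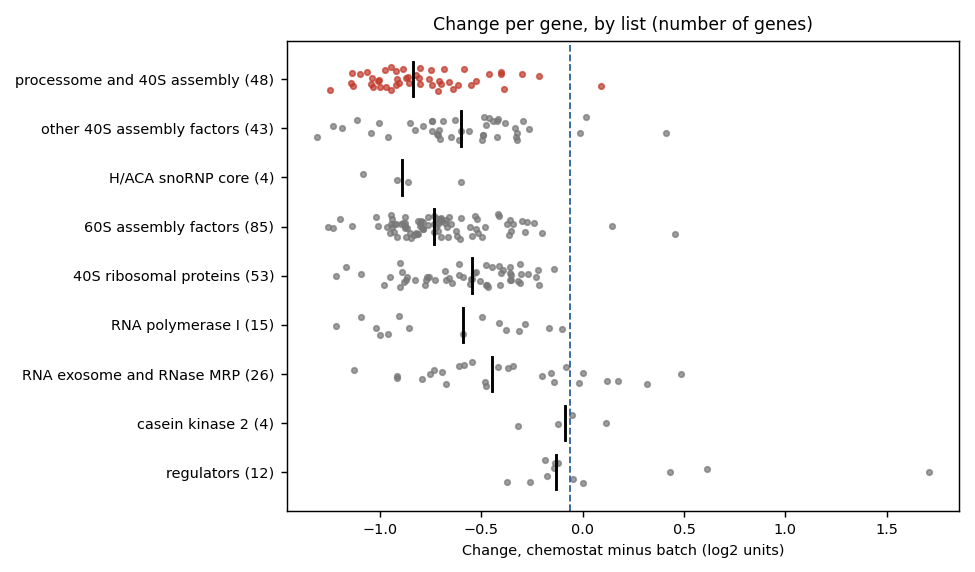
Change between chemostat and batch (log2 units, horizontal axis) of each gene, in red for the 48 processome and 40S assembly genes and in grey for other lists; short black lines are list medians and the dashed line is the median of all 5449 genes (-0.06). The assembly lists and the ribosomal proteins lie to the left of the dashed line except for a few genes, and the regulators and casein kinase 2 lie around it.

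The genes next to the 48 on the chromosomes moved in both directions. The nearest protein-coding gene on each side was taken from the RefSeq gene table (assembly R64). Among 84 measured neighbours outside the lists above, 34 were lower (40.5%), 30 were higher and 20 did not pass, beside 44.8% lower and 33.6% higher over all genes. Their median change was -0.07. Of these, 17 start back to back with a processome gene; 6 were lower, 6 were higher and 5 did not pass (median -0.03). The 6 that fell were RPC25 beside LTV1 (-0.76), RPC53 beside SAS10 (-0.59), TSC13 beside NOP1 (-0.55), ASN1 beside NOC4 (-0.51), MRPL6 beside IMP3 (-0.32) and YCG1 beside UTP4 (-0.20). The 6 that rose were GCY1 beside RIO1 (3.14), ATP5 beside BFR2 (0.50), RPN5 beside NOP14 (0.45), NCB2 beside UTP5 (0.22), HHO1 beside NAN1 (0.17) and SYF2 beside UTP8 (0.10). Another 8 neighbours belong to the lists above, and all 8 were lower. They are RIX1 beside UTP9, RPS18A beside UTP6, RSA3 and IFH1 beside UTP13, RRP15 beside NOC4, RPS10B beside RRP5, NSA2 beside LCP5 and RPS29B beside TSR1. Of these 8, RPS18A, RPS10B, NSA2 and RPS29B also start back to back with a processome gene (median change -0.73), and the 17 above leave them out.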

How the data were processed

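The authors deposited a log2 signal for each probe set on each array, computed with PLIER per the submitters' processing notes. The sources used here do not give its version, background correction or scaling between arrays. That the scale is logarithmic with base 2 was inferred from the range of the values. No further scaling and no pseudocount was applied; the planned one was for linear values.

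The table has 10928 probe sets, 5498 of them for a single S. cerevisiae gene, and the brightest stood for each of 5449 genes (47 had several). Symbols came through the RefSeq gene table of assembly R64. Background came from 1746 probe sets, taken as S. pombe because their annotated gene symbol starts with a lower-case letter. Another 3470 probe sets had no gene assigned and did not enter the background.

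Chemostat was compared with batch by limma 3.58.1 in R 4.3.3 (lmFit and eBayes, two-sided, no covariates); p-values were adjusted over all genes (Benjamini-Hochberg) with 0.05 as the threshold. Errors are limma's standard errors and 95% intervals, or SDs over 3 arrays. The number of arrays limits the precision. A gene below background in 1 group has a bound against the higher of each array's background and its own signal.

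All 48 genes are named. Signals on each array are given for the 2 largest changes and the smallest in each role group, and for genes that did not pass. Of other lists the 3 largest passing changes, the largest in the other direction, and up to 3 genes that did not pass are named. STB3, DOT6, TOD6 and SFP1 signals, the neighbour genes and LOT6 were chosen after their values were seen. The members and lists were chosen with earlier results of these data known. The lists share HAS1 and MTR4. Planned promoter motifs were not analysed here, nor were the U3 RNA genes, 4 ribosomal protein genes and RNA sequencing of the same extractions.

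Settings tried were quantile normalization, centring on the gene or S. pombe median, subtraction of the S. pombe median, array weights, removal of dim genes, the mean of probe sets, a trended, robust variance, an adjusted p under 0.01, a test of all probe sets, treat at 1.5-fold and each array left out.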

Additional observations from a re-analysis of the deposited data

How the results depend on the processing

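The 47 falls kept their direction in all 17 settings tried and their call in 16 of them. Under treat at 1.5-fold 31 members stayed lower, and 564 genes were lower and 601 higher over all, since that test asks for a larger change. The number of members called higher became 1 (RIO1) with centring on the S. pombe median, with the S. pombe median subtracted, with array weights and with all probe sets tested. The cause was not tested. The median change of the members was -0.92 with the S. pombe median subtracted, a step that stretches changes of dim genes. Leaving out 1 array at a time gave 47 members lower in each case, 0 to 1 higher (1 without chemostat replicate 4) and a median change between -0.89 and -0.81, with 2280 to 2438 genes lower and 1660 to 1808 higher over all. Under treat the counts lower were 13 instead of 40 for further 40S factors, 41 instead of 83 for 60S factors, 15 instead of 53 for 40S proteins, 7 instead of 14 for RNA polymerase I, 5 instead of 19 for the exosome and RNase MRP, 0 instead of 1 for casein kinase 2 and 0 instead of 7 for regulators (limma; both also 0 at an unadjusted p under 0.05). Regulators counted 4 lower at an adjusted p under 0.01, and casein kinase 2 counted 2 with arrays centred on the gene median or without batch replicate 1. No paired analysis was possible because the groups share no replicate number. The members' group means were all at least 6.85, above the background of 5.93. Over the 48 genes larger falls went with higher batch signals (Spearman correlation of change with batch mean -0.51). Without the U3 particle proteins this correlation was -0.38 over 44 genes. Batch signal enters both quantities, and whether signal level affected the sizes of the falls was not tested.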
